A study of Mus musculus with 8 samples.

Results

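The genes described here are matrix proteases and their inhibitors, 10 named genes out of 47729 in the deposited table. They are the secreted metalloproteinase genes Mmp7 and Mmp2, the membrane-type metalloproteinase genes Mmp14 and Mmp15, the sheddase genes Adam10 and Adam17, the tissue inhibitor genes Timp1, Timp2 and Timp3, and Plau, which encodes urokinase. They were selected by name, with their expression values in these 8 libraries in view, and Mmp7 was chosen for its high late level. Its pattern is therefore a description and was given no test. RNA was sequenced from mouse liver cells before and during organoid culture, to follow how the transcriptome of ductal cells changes in culture. The donors were adult male C57/B6 mice with healthy livers, and cells were selected by flow sorting for EpCAM, an adhesion protein of bile duct epithelium. The groups were freshly sorted cells at 0 h (2 libraries), cells kept in Matrigel and organoid medium for 12 h (2 libraries) or 24 h (1 library), and organoids after 6 days under the same conditions (2 libraries). A further library of cultured cells is titled 48h while its other labels give 24 h, and it is called by its title here. The labels name no genetic change and do not say whether replicates are separate mice. The p-values thus reflect the spread between libraries alone, which may be technical.

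Matrix metalloproteinases are zinc enzymes that cut collagens, laminins, other matrix proteins and many surface proteins. They are made as inactive precursors, and TIMP proteins block them by sitting in the active site. ADAM10 and ADAM17 use a related zinc site to release the outer parts of membrane proteins, among them Notch ligands and receptors, EGF-family growth factors and TNF. Urokinase is a serine protease that turns plasminogen into plasmin at the surface of cells that carry its receptor. MMP7, or matrilysin, is made by epithelial cells, and in the liver it is known as a product of injured bile duct cells and a serum marker of biliary atresia.

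The coding sequence of the active site is shown for each protease because it marks which members are zinc enzymes and how near to each other they are. Capitals mark the 3 histidine codons that hold the zinc ion in 6 genes and the codon of the catalytic serine in Plau. All are read 5′ to 3′ on the coding strand from GENCODE M21 transcripts on GRCm38.
Mmp7: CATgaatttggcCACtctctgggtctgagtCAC
Mmp14: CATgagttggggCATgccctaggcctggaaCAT
Mmp15: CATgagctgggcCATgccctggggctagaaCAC
Mmp2: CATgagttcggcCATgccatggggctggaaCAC
Adam10: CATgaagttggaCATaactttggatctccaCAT
Adam17: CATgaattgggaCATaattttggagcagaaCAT
Plau: ggcgatTCTggaggaccg
Over these 33 bases Mmp15 and Mmp2 shared 29, and Mmp14 shared 27 with each of them. Mmp7 stood further off, with 21 to 23 bases shared with the other 3 metalloproteinases. Adam10 and Adam17 shared 26 with each other and 17 and 18 with Mmp7. With the other metalloproteinases Adam10 shared 18 or 19 and Adam17 shared 20 to 22, near the values of Mmp7. The search required the 3 histidine codons, a glutamate codon and a glycine codon, so part of the shared bases was fixed in advance. The Timp1, Timp2 and Timp3 transcripts held no such site.

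On GRCm38, Mmp7 lies at chr9:7692090-7699585 and its zinc site at chr9:7697614-7697646, in exon 5 of 6. The site of Mmp14 is at chr14:54437627-54437659 in exon 5 of 10, that of Mmp15 at chr8:95368585-95368617 in exon 5 of 10, and that of Mmp2 at chr8:92839279-92839311 in exon 8 of 13. The site of Adam10 spans the junction of exons 9 and 10 of 16 within chr9:70754296-70761585. The site of Adam17 is on the minus strand at chr12:21336732-21336764 in exon 12 of 20, and the serine codon of Plau lies within chr14:20842274-20842291 in exon 11 of 11. Timp1 is at chrX:20870166-20874735, Timp2 on the minus strand at chr11:118301069-118355740 and Timp3 at chr10:86300372-86349506. All 10 are annotated as protein-coding. Timp3 shares 1733 exon bases with Syn3 on the opposite strand, Adam17 shares 311 with Iah1 and Mmp7 shares 123 with the antisense transcript AV064505. No source used here gives the strandedness of the counts, so reads from these overlaps cannot be told apart. Syn3 reached at most 1.42 RPKM and AV064505 at most 0.138, whereas Iah1 reached 93.2.

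RPKM is the read count scaled to gene length and to the depth of the library. Depth ranged from 13831251 to 28463495 effective reads, and 3 reads in a gene of 2 kb would give between 0.0527 and 0.108 RPKM. Genes at 1 RPKM or more numbered from 8814 in the 24 h library to 11263. Summed RPKM was 446034 in organoid replicate 1 and 359128 in organoid replicate 2. Over genes averaging at least 5 RPKM, the median log2 difference, replicate 1 minus replicate 2, was -0.493 in organoids. It was -0.00128 in fresh cells and -0.00906 at 12 h. The values given and the main fit are not corrected for this organoid shift. The defining ductal gene Epcam was between 513 and 1175 RPKM in all 8 libraries and Sox9 between 107 and 302, while Krt19 ranged from 162 to 1920. Marker genes of other cells were also present, and their levels differed between the groups. The 9 hepatocyte markers summed to between 947 and 959 RPKM in fresh cells, 37.6 to 49.7 at 12 h and 7.08 to 10.8 in organoids. The 12 mesenchymal and stellate markers summed to between 5.42 and 16.4, 0.134 to 2.32 and 0.366 to 12.8 RPKM in the same order. In bulk RNA, fewer cells of a type and less RNA per cell cannot be told apart.

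Fresh libraries held Mmp7 at 145 and 43.3 RPKM, those at 12 h at 23.8 and 15.9, and the 24 h library at 127. It stood at 902 RPKM in the 48h-titled library and at 631 and 710 in the organoids. The levels at 12 h were the lowest, those of the 48h-titled library and the organoids were well above all others, and the fresh, 12 h and organoid groups did not overlap. The fresh libraries differed from each other by 3.34-fold, and the 24 h value lay between them. The means were 93.9 ± 71.6 in fresh cells, 19.9 ± 5.54 at 12 h and 671 ± 55.4 RPKM in organoids (SD, n = 2 each), so the organoid mean was 7.14 times the fresh mean and 33.8 times the 12 h mean. The order of group levels was thus 12 h, fresh, organoids, and the lone 24 h library could not be placed apart from fresh cells. The 48h-titled library, a single library with no replicate, was 9.60 times the fresh mean and 1.34 times the organoid mean.

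Mmp7 had the highest RPKM of the 10 genes in 5 of the 8 libraries. Timp2 led in fresh replicate 2, Adam10 in 12 h replicate 1 and Timp1 in 12 h replicate 2. The share of Mmp7 in the summed RPKM of the 10 genes was 48.9% and 21.8% in fresh cells, 22.2% and 10.7% at 12 h, 43.2% at 24 h, 83.7% in the 48h-titled library and 76.9% and 74.2% in organoids. Mmp7 alone thus held most of the summed level in the 48h-titled library and the organoids, and less than 50% of it in each other library. The genes whose log2 levels followed Mmp7 most closely over the 8 libraries, among 6941 genes compared, were Ncapg2 (Pearson r = 0.965), Nnt (0.963), Ptgs1 (0.95), Birc5 (0.949) and Cbr4 (0.947). Ncapg2 encodes a condensin subunit, Nnt a mitochondrial transhydrogenase, Ptgs1 cyclooxygenase-1, Birc5 survivin and Cbr4 a carbonyl reductase. These correlations are descriptions across 8 libraries that share their groups. Birc5 was at 0.983 and 1.14 RPKM in fresh cells, 0.0281 and 0 at 12 h, 8.48 at 24 h, 46.9 in the 48h-titled library and 23.3 and 29.5 in organoids. Like Mmp7 it was highest in the 48h-titled library, but its 24 h value lay above both fresh values.

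**Figure D1:**
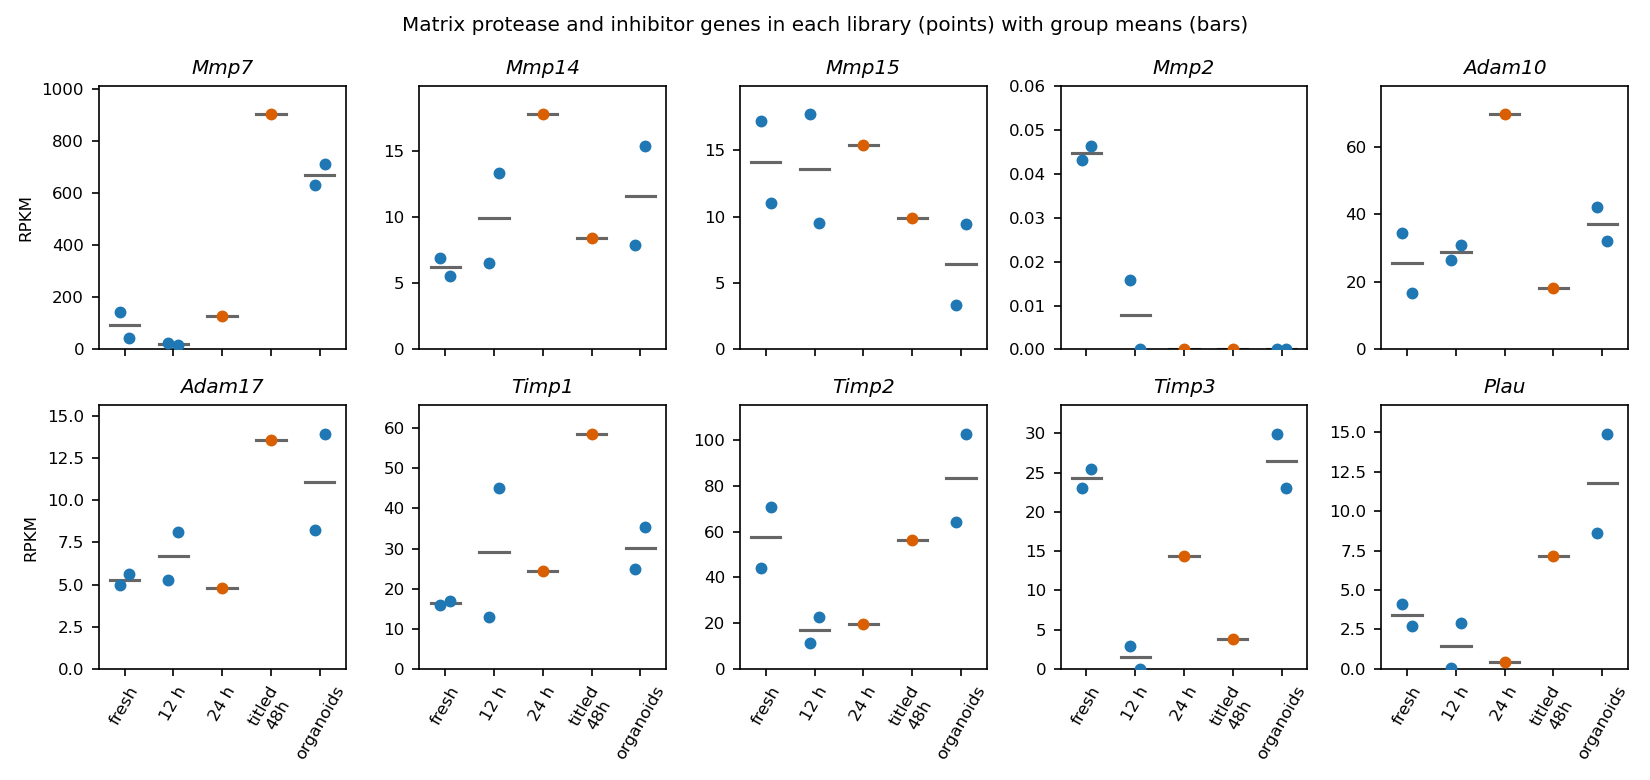
RPKM of each of the 10 genes (linear vertical axes from 0, one panel per gene) in the 8 libraries; blue points are libraries of replicated groups, orange points are lone libraries, and bars are group means. Mmp7 reaches 902 RPKM in the 48h-titled library, Timp3 is lowest at 12 h, and Mmp2 stays below 0.05 RPKM throughout.

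The sequence upstream of Mmp7 is shown because that gene has the highest level among the members. Its absolute range in RPKM is also the widest, whereas as a ratio of highest to lowest library Timp3 and Plau vary more. These 250 bases before the start site, chr9:7691840-7692089 on the plus strand of GRCm38.p6, are from RefSeq, 5′ to 3′, and capitals mark matches to 2 motifs.
Mmp7 upstream: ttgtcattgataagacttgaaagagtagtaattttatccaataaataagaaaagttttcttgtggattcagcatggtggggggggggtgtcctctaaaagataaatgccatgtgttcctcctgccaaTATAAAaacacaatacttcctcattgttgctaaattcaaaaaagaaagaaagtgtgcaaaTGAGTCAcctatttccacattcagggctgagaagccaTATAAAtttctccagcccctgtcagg
Both strands were searched for the AP-1 motif TGANTCA, the TATA motif TATAAA, the SP1 motif GGGCGG and the TCF/LEF motif ATCAAAG. The AP-1 motif was found from -63 to -57, and 6.75% of 32851 promoter windows of this length hold it. TATAAA was found from -123 to -118 and from -26 to -21, and 12.4% of windows hold it. GGGCGG (32.7% of windows) and ATCAAAG (3.21%) were not among these letters. A second RefSeq window of Mmp7, at chr9:7692091-7692340, holds ATCAAAG. It lies inside the gene as annotated here, past the start at chr9:7692090. RefSeq windows matched 8 of the 10 members. In those of the 7 other members neither TGANTCA nor TATAAA was found, and each held 1 to 3 copies of GGGCGG. GC content was 38% upstream of Mmp7, against 54.4% to 74% in the other 7 and a median of 52.4% over all windows. These matches describe letters only, and no binding was measured.

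Mmp2, gelatinase A, a protease known from mesenchymal cells, was at 0.0432 and 0.0462 RPKM in the fresh libraries and 0.0157 in 12 h replicate 1. It was listed at 0 in the other 5 libraries and, below 1 RPKM everywhere, was not tested. Beside Mmp7 and Mmp2, the list of secreted metalloproteinases held 14 more genes. Of the 16 genes in all, 11 stayed below 1 RPKM in every library, and 4 of those were listed at 0 in every library (Mmp1a, Mmp1b, Mmp8 and Mmp27). Mmp9, gelatinase B, reached at most 1.37 RPKM and Mmp3, stromelysin-1, at most 2.76.

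The 2 membrane-type metalloproteinase genes lay between 3.34 and 17.8 RPKM in all libraries. Mmp14, the main activator of pro-MMP2, was at 6.94 and 5.58 RPKM in fresh cells, 6.52 and 13.4 at 12 h, 17.8 at 24 h, 8.40 in the 48h-titled library and 7.89 and 15.4 in organoids. The 24 h value was the highest, and the 12 h values overlapped the fresh ones. Mmp15, the second membrane-type enzyme of the set, was at 17.2 and 11.03 RPKM in fresh cells, 17.7 and 9.52 at 12 h, 15.4 at 24 h, 9.90 in the 48h-titled library and 3.34 and 9.46 in organoids. Both organoid values were below both fresh values. The ratio of Mmp14 to Mmp15 was 0.403 and 0.506 in fresh libraries and 2.36 and 1.62 in organoids, so the more abundant of the pair was Mmp15 in fresh cells and Mmp14 in organoids. It was 0.368 and 1.40 at 12 h, where the replicates fell on either side of 1. By limma with Benjamini-Hochberg adjustment over all genes, neither gene passed between organoids and fresh cells (Mmp14 log2 change 0.74, SE 0.51, adjusted p = 0.385; Mmp15 log2 change -1.13, SE 0.57, adjusted p = 0.241).

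Adam10, the sheddase of Notch receptors and many adhesion proteins, was at 34.6 and 16.8 RPKM in fresh cells, 26.6 and 31.0 at 12 h, 69.6 at 24 h, 18.3 in the 48h-titled library and 42.2 and 32.0 in organoids. The lone 24 h library was above all the others, and the organoid and 12 h values overlapped the fresh ones. Adam17, which releases TNF and EGF-family ligands, was at 4.95 and 5.62 RPKM in fresh cells, 5.27 and 8.10 at 12 h, 4.82 at 24 h, 13.6 in the 48h-titled library and 8.24 and 13.9 in organoids. Both organoid values were above both fresh values. The organoid replicates differed, in the direction of the shift between these libraries given above. Adam10 exceeded Adam17 in every library, by 1.35-fold in the 48h-titled library and by 14.4-fold at 24 h. The Adam17 values may include reads of Iah1, which reached 93.2 RPKM, from the 311 exon bases that they share. The part of such reads was not measured. In organoids against fresh cells neither passed by limma (Adam10 log2 change 0.59, SE 0.43, adjusted p = 0.410; Adam17 0.90, SE 0.46, adjusted p = 0.240). The 12 h changes, 0.24 and 0.27, turned to -0.13 and -0.10 after median centring of the libraries.

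The 3 TIMP genes follow, in order of the size of their 12 h change with Timp3 first. Timp3, an inhibitor that binds to the matrix and also blocks ADAM17, was at 23.1 and 25.5 RPKM in fresh cells, 2.90 and 0.0339 at 12 h, 14.4 at 24 h, 3.79 in the 48h-titled library and 30.0 and 23.1 in organoids. The 12 h libraries were below all others, the organoid values overlapped the fresh ones, and the 48h-titled library was low as well. The 12 h values stood for 494 and 6 effective reads. From 24.3 ± 1.71 to 1.46 ± 2.02 RPKM, Timp3 was 16.6-fold lower at 12 h (SD, n = 2 each; limma log2 change -3.65, SE 0.65, adjusted p = 0.0337). In organoids it was 18.1-fold above 12 h, at 26.5 ± 4.88 RPKM (log2 change 3.77, SE 0.65, adjusted p = 0.0449), and it did not pass against fresh cells (0.11, SE 0.65, adjusted p = 0.929). Both calls rested on few libraries. Leaving out any 1 of the 6 replicated libraries ended both, with adjusted p from 0.0539 (without 12 h replicate 1) to 0.280 (without fresh replicate 2) at 12 h and from 0.0539 to 0.222 (the same libraries) in organoids against 12 h; the direction stayed. Both were also lost with a pseudocount of 0.1 (adjusted p = 0.0703 and 0.0975), with no low-value filter (0.0937 and 0.159) and with only the groups compared (0.0601 and 0.210).

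Timp3 is also made by mesenchymal cells in liver, so their markers stand beside its values. Of the 12 markers 8, among them Col1a1, Col1a2, Col3a1 and Pdgfrb, were listed at 0 in both 12 h libraries, and none in both fresh libraries. Over the whole table, 15632 and 16157 genes were above 0 at 12 h, against 19279 and 21132 in fresh libraries. In the 24 h library 10 markers were listed at 0, with Timp3 at 14.4 RPKM. In the 48h-titled library 5 were, with Timp3 at 3.79. The sum of the 12 markers was lower at 12 h, like Timp3, and their part in that fall was not tested. Within the 12 h group the sum was 2.32 RPKM in replicate 1, nearly all of it Dcn at 2.27. In replicate 2 the sum was 0.134 and Dcn was at 0.0221, the same order as Timp3 at 2.90 and 0.0339. The other markers detected at 12 h were in the opposite order, with Acta2 at 0.0536 and 0.0775, Reln at 0 and 0.0252 and Vim at 0 and 0.00970. In fresh replicates 1 and 2 the sum was 16.4 and 5.42 RPKM, while Timp3 was at 23.1 and 25.5. In organoids, where Timp3 was at 30.0 and 23.1 RPKM, 6 of the 12 (Col1a2, Dcn, Lum, Pdgfrb, Des and Lrat) were listed at 0 in both libraries. Nearly all of the highest organoid sum was Vim, at 0.168 RPKM in replicate 1 and 12.6 in replicate 2, while Timp3 was at 30.0 and 23.1.

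Timp2, an inhibitor that also takes part in activation of pro-MMP2, was at 44.2 and 71.0 RPKM in fresh cells, 11.5 and 22.7 at 12 h, 19.7 at 24 h, 56.2 in the 48h-titled library and 64.2 and 103 in organoids. The 12 h and 24 h libraries were low and did not overlap the fresh or organoid libraries. Its means were 57.6 ± 18.9, 17.1 ± 7.91 and 83.5 ± 27.3 RPKM in fresh cells, at 12 h and in organoids (SD, n = 2 each). The test was missed at 12 h (limma log2 change -1.73, SE 0.47, adjusted p = 0.0756) and between organoids and 12 h (2.25, SE 0.47, adjusted p = 0.0676). After median centring both passed (log2 change -2.09, adjusted p = 0.0365; 2.47, adjusted p = 0.0402). Timp1, an inducible secreted inhibitor, was at 15.9 and 16.9 RPKM in fresh cells, 12.9 and 45.2 at 12 h, 24.4 at 24 h, 58.6 in the 48h-titled library and 24.9 and 35.5 in organoids. The 12 h replicates lay on either side of the fresh values and both organoid values lay above them (log2 change 0.82, SE 0.59, adjusted p = 0.396).

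The summed level of the 3 TIMP genes was 83.3 and 113 RPKM in fresh cells, 27.3 and 68.0 at 12 h, 58.5 at 24 h, 119 in the 48h-titled library and 119 and 161 in organoids. Timp2 was the largest part in fresh cells, at 53.1% and 62.6%, and in organoids, at 53.9% and 63.7%. Timp1 was the largest part at 12 h, at 47.2% and 66.5%, and was 19.2% and 14.9% in fresh libraries. It was also the largest at 24 h (41.7%, Timp2 33.7%) and, narrowly, in the 48h-titled library (49.4%, Timp2 47.4%). Mmp7 divided by the TIMP sum was 1.74 and 0.382 in fresh cells, 0.870 and 0.235 at 12 h, 2.17 at 24 h, 7.60 in the 48h-titled library and 5.30 and 4.40 in organoids. The 48h-titled library and both organoid libraries had the highest ratios, and the 12 h ratios overlapped the fresh ones. This ratio inherits the choice of Mmp7 and is given with no test.

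**Figure D2:**
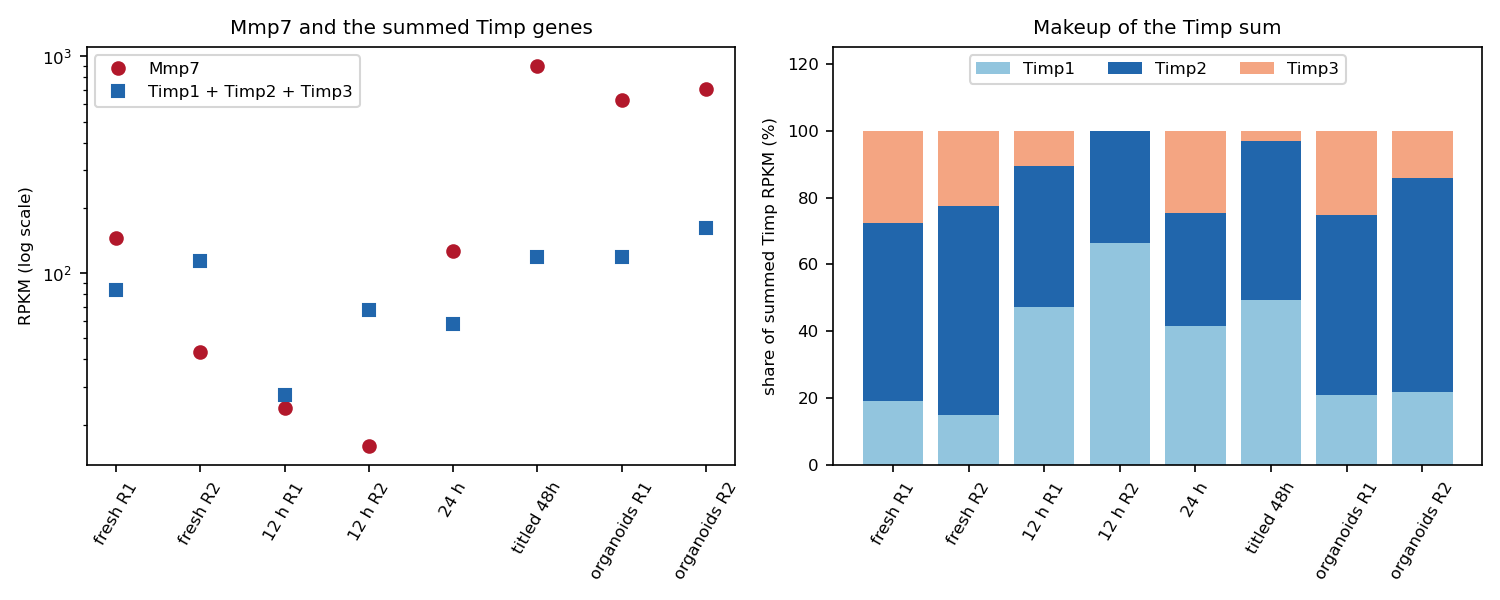
Left, RPKM of Mmp7 (circles) and of Timp1, Timp2 and Timp3 summed (squares) in each of the 8 libraries on a log axis; right, the share of the TIMP sum held by each gene in percent. Mmp7 lies above the TIMP sum by 4.40-fold to 7.60-fold in the 48h-titled library and the organoids. Timp1 is the largest share at 12 h, at 24 h and in the 48h-titled library.

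Plau was at 4.11 and 2.73 RPKM in fresh cells, 0.0408 and 2.89 at 12 h, 0.422 at 24 h, 7.15 in the 48h-titled library and 8.64 and 14.9 in organoids. The organoids were above all other libraries and the 12 h replicates were far apart. The organoid mean of 11.8 ± 4.43 RPKM was 3.44 times the fresh mean of 3.42 ± 0.979 (SD, n = 2 each), which did not pass by limma (log2 change 1.5, SE 0.71, adjusted p = 0.212; 2.62, SE 0.71, adjusted p = 0.113 against 12 h). Its receptor gene Plaur was at 1042 and 1183 RPKM in fresh cells, 402 and 306 at 12 h, 270 at 24 h, 219 in the 48h-titled library and 20.7 and 131 in organoids. Plaur was thus highest in fresh cells and lowest in organoids, where Plau was highest. In 12 h replicate 1 and at 24 h both genes were below their fresh values. It was 14.7-fold lower in organoids, at 75.7 ± 77.6 against 1112 ± 99.5 RPKM (limma log2 change -4.38, SE 0.78, adjusted p = 0.0232). The receptor exceeded its ligand by 253-fold and 433-fold in fresh libraries and by 2.40-fold and 8.76-fold in organoids. Between these, the ratio was 9859 and 106 at 12 h, 639 at 24 h and 30.6 in the 48h-titled library. The highest of these rests on 2 effective reads of Plau.

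Of the 10 genes, 9 reached 1 RPKM in at least 2 libraries and, with Mmp7 kept as a description, 8 were tested. At 12 h against fresh cells 1 of the 8 passed, Timp3, lower, where 6.81% of 12900 genes passed, 3.09% higher and 3.72% lower. Between organoids and fresh cells 0 of the 8 passed by limma, and 0 had an unadjusted p under 0.05, where 10.1% of genes passed, 5.15% higher and 4.94% lower. Between organoids and 12 h 1 of the 8 passed, Timp3, higher, where 2% of genes passed, 1.38% higher and 0.62% lower. Organoids and fresh cells did not overlap for 5 of the 8 genes (Mmp14, Mmp15, Adam17, Timp1 and Plau), close to the 64.7% of all genes tested. At 12 h the groups did not overlap for 2 of the 8 (Timp2 and Timp3), against 62.2% of all genes. Between organoids and 12 h they did not overlap for 6 of the 8 (Mmp15, lower, and Adam10, Adam17, Timp2, Timp3 and Plau, higher), against 44.9% of all genes. The 3 comparisons share libraries, so they are not independent of each other. The median log2 change of all genes tested was 0.24 at 12 h, 0.17 in organoids against fresh cells and -0.09 in organoids against 12 h. After median centring, the calls over all genes split into 300 higher and 839 lower at 12 h (398 and 480 as deposited), 557 and 836 in organoids against fresh cells (664 and 637), and 283 and 74 in organoids against 12 h (178 and 80).

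**Figure D3:**
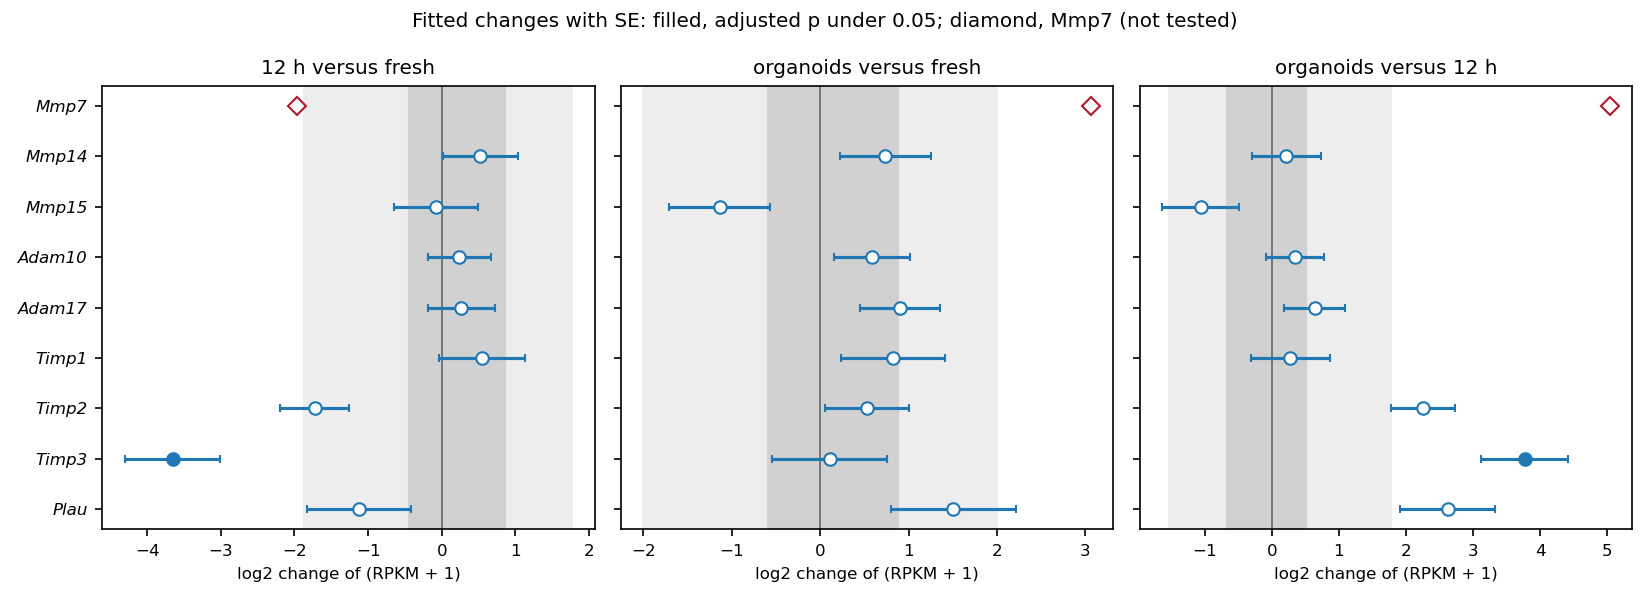
Fitted log2 change of (RPKM + 1) on the horizontal axis for 9 genes in 3 comparisons, with SE bars; filled circles have an adjusted p under 0.05 by limma, the open diamond is Mmp7 without a test, and grey bands span the middle 50% and 90% of all genes tested. Timp3 is the filled circle at -3.65 at 12 h and at 3.77 in organoids against 12 h.

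The wider lists of proteases, inhibitors and substrates held 112 genes beside the members, of which 66 were tested. Between organoids and fresh cells 15 of the 66 passed by limma, 6 higher and 9 lower, with a median log2 change of -0.15 (0.17 over all genes). This was 22.7% of the list, against 10.1% of all genes. At 12 h 9 passed (13.6%, against 6.81% of all genes), 2 higher and 7 lower, with a median of -0.37 (0.24 over all genes). Between organoids and 12 h 3 passed (4.55%, against 2% of all genes), 2 higher and 1 lower, with a median of -0.03 (-0.09 over all genes). Centred on the library medians, the first split was 5 higher and 13 lower and the second 1 higher and 12 lower. Adam33, Mmp23, Adamts4, Plg and Serpinf2 reached 1 RPKM only in the fresh libraries, which alone brought them into the test. Against fresh cells they could thus only be called lower. All are among the 9 lower calls in organoids, and all but Serpinf2 among the 7 at 12 h. Ereg entered only through the organoid libraries. Pcsk6 reached 1 RPKM only there and in the 48h-titled library, so against fresh cells both could only be called higher. The shares and splits include these genes, so they do not show that the lists lean lower.

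Of 17 tested genes of substrates shed by ADAM10 or ADAM17, 3 passed at 12 h (1 higher, 2 lower) and 3 in organoids against fresh cells (2 higher, 1 lower), or 17.6% in each, against 6.81% and 10.1% of all genes. Of 8 tested regulators 1 passed in each of these comparisons, or 12.5%. Hbegf, which encodes a membrane-bound EGF-family ligand released by ADAM17, fell from 707 ± 170 RPKM in fresh cells to 203 ± 20.6 at 12 h (limma log2 change -1.78, SE 0.34, adjusted p = 0.0367) and 45.1 ± 7.63 in organoids (-3.93, SE 0.34, adjusted p = 0.00616; SD, n = 2 each). Hbegf was 15.7-fold lower in organoids than in fresh cells. The lone libraries held it at 159 RPKM (24 h) and 94.3 (48h-titled). Sdc1, the shed proteoglycan syndecan-1, rose from 15.1 ± 5.29 to 56.2 ± 11.2 at 12 h and 85.8 ± 12.9 RPKM in organoids (adjusted p = 0.0413 and 0.0167), and its 12 h call was lost after median centring (adjusted p = 0.0506). Tspan17, a tetraspanin in the list of regulators, rose from 5.22 ± 1.68 to 22.9 ± 3.78 and 28.0 ± 10.5 RPKM (limma adjusted p = 0.0487 and 0.0296). Tspan17 was that 1 regulator in both. Tnfrsf1b, a TNF receptor that is shed, fell to 1.23 ± 0.0929 RPKM at 12 h from 16.0 ± 3.72 (adjusted p = 0.0375) and stood at 3.01 and 9.24 in organoids. Ereg, the ligand epiregulin, rose to 2.49 ± 0.577 RPKM in organoids (limma adjusted p = 0.02) and was listed at 0 in both 12 h libraries. It entered the test only through the organoid libraries, so it could only be called higher there.

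Among other metalloproteinases, Adam33 fell from 11.5 ± 3.53 RPKM to 0.00869 ± 0.000226 at 12 h and stood at 0 and 0.0734 in organoids (limma adjusted p = 0.0189 and 0.00792). Adamts1, which cuts aggrecan and versican, fell 9.84-fold in organoids, from 30.9 ± 8.25 to 3.14 ± 0.0837 RPKM (adjusted p = 0.0140). Its 12 h values of 11.3 and 15.5 RPKM lay between. Mmp23 and Adamts4, at 3.46 ± 1.92 and 3.74 ± 0.769 RPKM in fresh cells, passed as lower in both comparisons and were listed at 0 in both 12 h libraries. Like Adam33, they entered the test only through the fresh libraries.

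Of 6 tested genes of plasminogen activation, 1 fell at 12 h and 2 fell in organoids, where 3.72% and 4.94% of all genes were called lower. These were Plg in both, the gene of plasminogen, made by hepatocytes, and Plaur in organoids. Plg was at 7.04 and 3.90 RPKM in fresh cells, 0 in both 12 h libraries, and 0 and 0.0180 in organoids. It entered the test only through the fresh libraries. Tmprss6, the hepatocyte protease matriptase-2, fell from 17.8 ± 1.04 to 0.957 ± 1.33 RPKM at 12 h (limma adjusted p = 0.0304) and stood at 0 and 0.155 in organoids (adjusted p = 0.0135). Serpinf2, the hepatocyte inhibitor of plasmin, was at 4.23 and 1.33 RPKM in fresh libraries and listed at 0 in the other 6. These 3 genes moved with the hepatocyte markers given above, whose part in their fall was not tested. Plat, the tissue-type activator, was at 204 and 177 RPKM in fresh cells, 41.4 and 29.1 at 12 h and 44.3 and 161 in organoids, and did not pass (adjusted p = 0.0613 at 12 h).

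Of 8 tested cathepsin genes, which encode lysosomal proteases, 2 rose in organoids against fresh cells, where 5.15% of all genes were called higher. The other 6 did not pass, and the fitted change was below 0 for Ctsl, Ctso and Ctsc. Ctsd, cathepsin D, was at 228 and 180 RPKM in fresh cells, 518 and 213 at 12 h and 1336 and 994 in organoids, 5.70-fold above fresh cells (limma log2 change 2.50, SE 0.49, adjusted p = 0.0296; 0.0549 after quantile normalization). Ctsh, cathepsin H, was at 22.7 and 18.0 RPKM in fresh cells, 5.56 and 5.85 at 12 h, 41.2 at 24 h, 28.5 in the 48h-titled library and 205 and 99.99 in organoids. It was lowest at 12 h and highest in organoids, 7.48-fold above fresh cells (adjusted p = 0.0174) and 26.7-fold above 12 h (adjusted p = 0.0183). Pcsk6, a proprotein convertase, rose in organoids to 6.39 and 2.17 RPKM from 0.215 and 0.0338 (limma adjusted p = 0.0382). It reached 1 RPKM only in the organoid libraries and the 48h-titled library (1.51). Against fresh cells Pcsk6 could thus only be called higher. Spint2, a Kunitz inhibitor of membrane serine proteases, was at 142 and 133 RPKM in fresh libraries and 343 and 306 in organoids and narrowly missed (adjusted p = 0.0505). The calls of these lists depended on the filter and on the fresh libraries. With no low-value filter Tspan17, Sdc1, Tmprss6, Tnfrsf1b and Hbegf missed at 12 h (limma adjusted p from 0.0721 to 0.0956), and Ctsh, Ctsd, Tspan17, Plaur and Tmprss6 missed in organoids against fresh cells (0.0550 to 0.0973). Without fresh replicate 1 or fresh replicate 2, 0 of the 12900 genes passed by limma at 12 h (1878 and 1672 at an unadjusted p under 0.05) or in organoids against fresh cells (2163 and 1847). Without organoids replicate 1, 2 of the 66 list genes passed in organoids against fresh cells. At 12 h, 0 list genes passed without 12 h replicate 1 (24 at an unadjusted p under 0.05) and 1 without 12 h replicate 2. Between organoids and 12 h, 0 list genes passed without either fresh, either 12 h or the first organoid library (13 to 18 at an unadjusted p under 0.05).

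**Figure D4:**
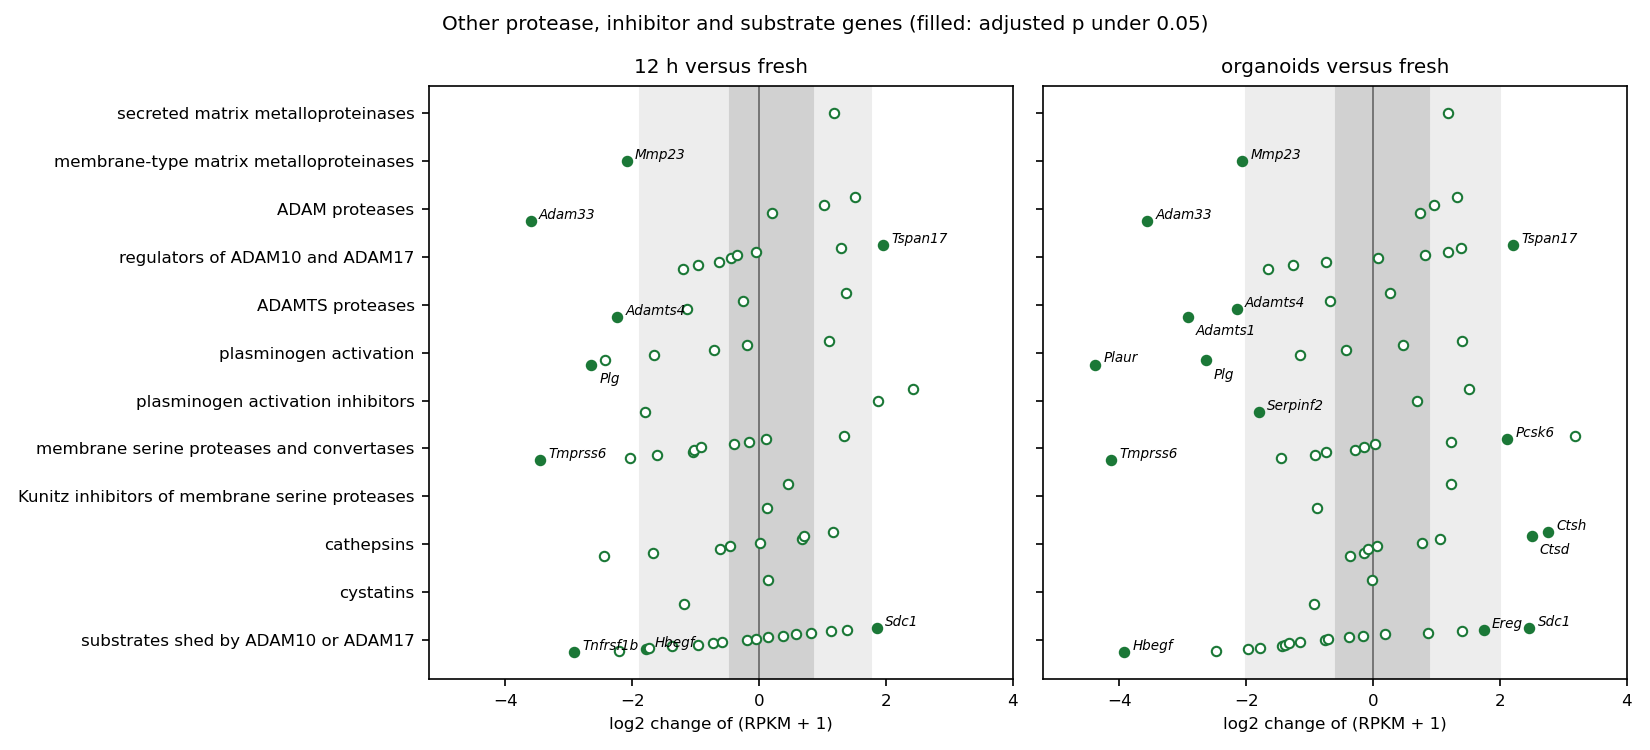
Fitted log2 change of (RPKM + 1) for the 66 other protease, inhibitor and substrate genes tested, by list, at 12 h (left) and in organoids (right) against fresh cells; filled points have an adjusted p under 0.05 by limma and grey bands span the middle 50% and 90% of all genes tested. Filled points number 9 on the left and 15 on the right, with Hbegf at -1.78 and -3.93.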

How the data were processed

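RNA from 8 libraries was measured by Smart-seq2 with Nextera XT tagmentation, per the labels' protocols. The authors deposited RPKM values for 47729 Ensembl identifiers in each library, and per the submitters' processing notes they used edgeR and the GRCm38 build. The aligner, counter, annotation, strandedness and any scaling factor were not given in the sources used here. GENCODE M21 named 47224 identifiers. Between 88.5% and 92.1% of small values per library were whole multiples, within 0.01, of the value of 1 read, which gave the effective reads. The limit that 3 reads set is one of counting error only, because reads amplified by PCR were not tagged as separate molecules.

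Tests used log2(RPKM + 1), which understates changes of low genes. The 12900 genes that reached 1 RPKM in 2 or more libraries were fitted with limma 3.58.1 in R 4.3.3: 1 coefficient per group over all 8 libraries, variances following the mean, and 3 residual plus 3.65 prior degrees of freedom. Two-sided p-values were adjusted with the Benjamini-Hochberg method and called under 0.05. Lone libraries entered the fit and were not tested. The procedure was tested on simulated data. Members, lists and comparisons were chosen with earlier results of these data known. Beside the members, up to 10 list genes in each direction were named per comparison if they passed, averaged 5 RPKM or more over the 4 libraries and did not overlap. Plat, Spint2, Plg, Serpinf2, Mmp23, Adamts4, Mmp3, Mmp9, Pcsk6, Ereg, Ctsl, Ctso and Ctsc were named after their values were seen. The 5 genes most like Mmp7 were taken by Pearson correlation. Alternatives were other pseudocounts, filters, scalings, library weights, a replicate block, only the groups compared and leaving out each library. Sequences came from GENCODE M21 transcripts and RefSeq promoters. The main fit did not pair libraries by replicate number, and the labels do not say whether the numbers pair them.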

Additional observations from a re-analysis of the deposited data

Results flagged for a closer look

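In the libraries that entered no test, 6 of the 10 genes stood above both fresh libraries in at least 1 of the 2 libraries. Of the 12900 genes tested, 66.6% did so (44% in the 24 h library and 55.1% in the 48h-titled library), so the count says nothing particular about these members. In the 48h-titled library these were Mmp7 at 902 RPKM, Mmp14 at 8.40, Adam17 at 13.6, Timp1 at 58.6 and Plau at 7.15. In the 24 h library they were Mmp14 at 17.8 RPKM, Adam10 at 69.6 and Timp1 at 24.4. The values for Mmp14 and Adam10 at 24 h and for Mmp7 and Timp1 in the 48h-titled library were the highest of the 8 libraries. Each is 1 library with no replicate, and the labels of the second disagree on its time.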

How the results depend on the processing

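With 2 libraries per group, calls were sensitive to single libraries and to scaling. The number of the 8 members called, 1 at 12 h and 1 in organoids against 12 h, was 0 in both with a pseudocount of 0.1, with no low-value filter and with only the groups compared, and 0 in the second also with a pseudocount of 0.5 and with library weights. It was 2 in both after median centring and with a replicate block, and 2 at 12 h after quantile normalization, Timp2 being added. Between organoids and fresh cells it was 0 throughout. Leaving out 1 replicate gave 0 to 0 members in each comparison. Over all genes, leaving out 1 replicate gave 0 to 1082 calls at 12 h, 0 to 1418 in organoids against fresh cells and 0 to 321 against 12 h, and for the lists 0 to 13, 0 to 18 and 0 to 5. With no low-value filter 423, 740 and 0 genes passed in these comparisons (3379 at an unadjusted p under 0.05 in the last), against 878, 1301 and 258, and 5 and 0 list genes at 12 h and against 12 h. With library weights 1601 genes and 14 list genes passed at 12 h, and 28 and 1 against 12 h. Against 12 h, 418 passed with a pseudocount of 0.1, 151 with a mean of at least 5 RPKM, and 0 genes and 0 list genes with only the groups compared (1686 at an unadjusted p under 0.05).

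No called change turned direction. Each pair of a gene and an alternative was then counted, over the members and the list genes named by rule. A call was lost in 48 such pairs at 12 h, 33 in organoids against fresh cells and 27 against 12 h. Most of these losses came without 1 replicate. Calls were gained in 3, 0 and 2 pairs. Among changes that had not passed, Adam10 and Adam17 at 12 h were -0.13 and -0.10 after median centring and -0.12 and -0.086 after quantile normalization, and Timp3 in organoids against fresh cells was -0.035 and -0.13. Leaving out 1 replicate, the log2 change at 12 h ranged from -0.26 to 0.74 for Adam10, -0.0025 to 0.54 for Adam17, -0.49 to 0.34 for Mmp15 and -0.32 to 1.41 for Timp1. In organoids it ranged from -0.071 to 0.29 for Timp3 against fresh cells, and against 12 h from -0.25 to 0.68 for Mmp14 and -0.59 to 1.15 for Timp1. The Mmp7 change ranged from -2.83 to -1.11 at 12 h and from 2.20 to 3.92 in organoids against fresh cells. Some alternatives also changed the number of libraries or of genes tested (26693 genes with no low-value filter, against 12900). The pseudocounts changed neither. The cause of the lost and gained calls was not tested. Replicate differences correlated at 0.282 for fresh and 12 h, 0.268 for fresh and organoids and 0.0239 for 12 h and organoids. These values cannot settle whether the replicate numbers pair the libraries. With the replicate block Timp2 passed at 12 h (limma adjusted p = 0.0424) and in organoids against 12 h (0.0400). Tspan17 and Sdc1 missed at 12 h with it (0.0583 and 0.0517). Low counts limit Timp3 in 12 h replicate 2 (6 effective reads, 494 in replicate 1) and Plau in 12 h replicate 1 (2, against 149 in replicate 2). They limit Mmp2 throughout.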
